A study of Mus musculus with 2 samples.

Results

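The 9 genes described here encode transcription regulators that set the fate of lymphocytes: Gata3, Rora, Tbx21, Eomes, Tcf7, Bach2, Foxp3, Id2 and Zbtb16. They were chosen by gene symbol from the 32285 genes of the single-cell count matrices, and all 9 were found. Their UMIs (unique molecular identifiers, one per captured transcript) and the share of cells with a UMI were followed in T, group 2 innate lymphoid (ILC2), natural killer (NK) and B cells of the mouse meninges after a Sham procedure or a mild traumatic brain injury (TBI). The mice were male C57BL/6 wild-type animals, given as 10 weeks old in one label and 10 to 12 weeks in another, with the same genotype in both groups. TBI was a single mild closed-skull impact over the right temporal lobe, and Sham mice had the anesthesia and handling without the impact. The dorsal meninges, which leave out the tissue under the impact, were taken 1 week later, pooled from 5 mice per group and sorted for live single cells, so that each group is 1 library.

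These proteins act as switches. GATA3, helped by RORα, drives type 2 lymphocytes, whereas T-bet (Tbx21) and Eomesodermin (Eomes) drive type 1 and cytotoxic ones; TCF-1 (Tcf7) and BACH2 keep T cells and B cells in naive or precursor-like states, FOXP3 defines regulatory T cells, and PLZF (Zbtb16) marks innate-like T cells. ID2 binds E proteins and blocks their DNA binding, which favours innate lymphoid and effector fates over the B lineage. In the meninges such lymphocytes reside in the dura, where ILC2s line the venous sinuses.

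The Sham library had 2699 barcodes with 9527334 UMIs and the TBI library 4349 barcodes with 15011079 UMIs, of which 2043 and 3773 cells were kept after filters on gene number, mitochondrial and hemoglobin UMIs. Cells were placed in classes by clustering without the 9 members and without 40 other lymphocyte factors, so no member decided a class. This gave 149 Sham and 239 TBI T-like cells, 124 and 140 ILC2-like cells, 93 and 89 NK-like cells, 370 and 303 B-like cells and 94 and 127 B precursor-like cells. Each class carried the markers of the list that named it, which is no separate check of its purity. In both libraries all 11 T markers were found in T-like cells, and all 14 ILC2 markers in ILC2-like cells. Likewise all 13 NK markers were in NK-like cells, all 12 B markers in B-like cells and all 11 precursor markers in B precursor-like cells. Levels are given as CPM (UMIs of a gene per 1000000 UMIs of the class). All 11 T markers were also found in ILC2-like cells, summing to 1376 CPM in Sham and 1246 CPM in TBI. In T-like cells they summed to 6954 and 7106 CPM. TBI T-like cells had all 12 B markers, at 902 CPM beside 23510 CPM in TBI B-like cells. Intervals are exact 95% intervals that cover counting error only, and because each group is 1 library there is no replicate check of any difference and no test was made. Fibroblast RNA was one clear difference between the libraries: the summed level of 8 fibroblast markers was 9.83 to 38.6 CPM in the Sham lymphocyte classes and 212 to 355 CPM in those of TBI. The 6 erythroid markers went the other way, from 1343 to 2107 CPM in Sham to 219 to 499 CPM in TBI. Whether these marker UMIs came from free RNA was not tested. Their part in the results was not tested either, except where values for it are given below. The 2 libraries shared 20 cell barcodes, carried by 13 cells of these classes. When those cells were removed, none of the 26 ratios of a member with at least 10 UMIs in a class moved beyond its counting interval. The ratios of single other genes, and of smaller groups of cells within a class, were not checked in this way.

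The members divided the lymphocytes along known lines. Of the UMIs of each gene in filtered cells of both libraries, 94.5% of the 733 for Gata3, 96.9% of the 354 for Tbx21, 96.6% of the 238 for Eomes and 88.7% of the 318 for Tcf7 lay in the 5 lymphocyte classes. For Bach2 this share was 79.2% of 872 and for Foxp3 80.5% of 41. The other 3 genes were used more widely: 43.6% of the 6617 Id2 UMIs, 41.4% of the 764 Rora UMIs and 24.6% of the 272 Zbtb16 UMIs were in lymphocytes, and fibroblast-like cells held 21.5%, 16.9% and 23.5% of them. The lymphocyte shares in Sham and TBI were 55.12% and 37.59% for Id2, 58.01% and 34.15% for Rora and 36.51% and 21.05% for Zbtb16. For Foxp3 they were 94.44% and 69.57%. The libraries also differed in the cells they held, with 66 and 458 fibroblast-like cells. The part of cell numbers in the shares was not tested.

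**Figure D1:**
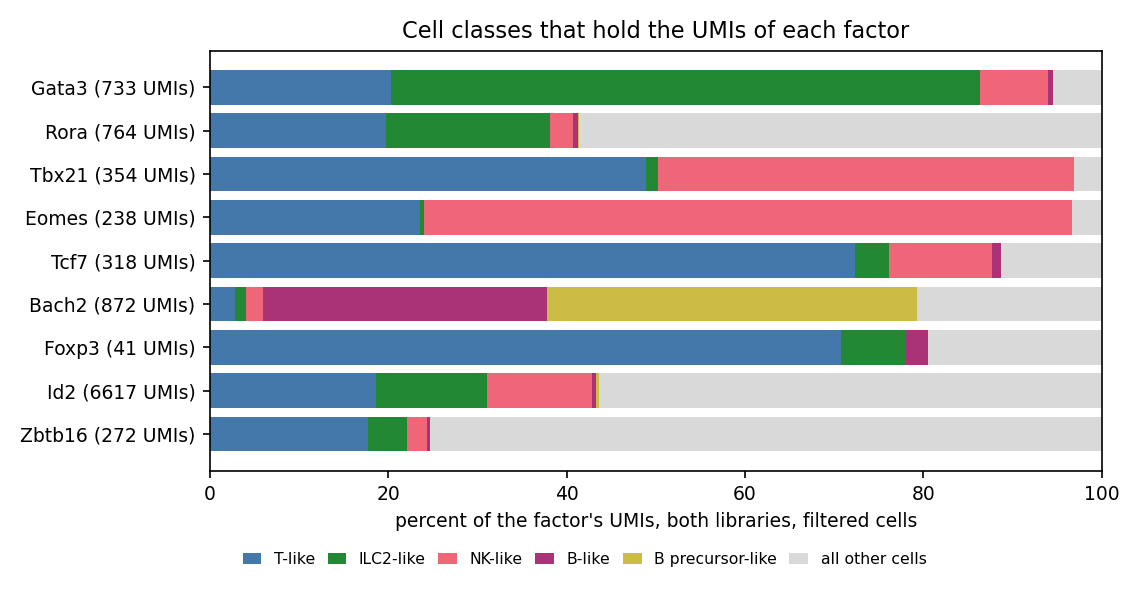
Each bar divides the UMIs of 1 factor, over both libraries, into the share held by each lymphocyte class (coloured) and by all other cells (grey), in percent. Tbx21, Eomes and Gata3 lie almost wholly in lymphocytes, at 96.9%, 96.6% and 94.5%, while 24.6% of Zbtb16 does.

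Promoters are shown for Gata3, Tbx21, Eomes and Bach2, the members on which the results for ILC2-like, NK-like and B lineage cells turn, as the 250 bases before the RefSeq start on GRCm38.p6, read 5′ to 3′ on the strand of the gene. They are chr2:9878601-9878850 (minus strand), chr11:97115332-97115581 (minus), chr9:118477939-118478188 (plus) and chr4:32417185-32417434 (plus) respectively. The Gata3 and Bach2 stretches lie inside the annotated span of their genes, given below. Each thus precedes a start that lies downstream of the annotated 5′ end. Capitals mark a match, on either strand, to CTTTGA, the core letters bound by TCF and LEF proteins.
Gata3: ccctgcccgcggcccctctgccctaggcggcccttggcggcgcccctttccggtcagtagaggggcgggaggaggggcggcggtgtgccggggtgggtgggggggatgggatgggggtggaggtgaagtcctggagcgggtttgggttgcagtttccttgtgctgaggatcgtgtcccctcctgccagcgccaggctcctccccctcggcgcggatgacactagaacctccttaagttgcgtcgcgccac
Tbx21: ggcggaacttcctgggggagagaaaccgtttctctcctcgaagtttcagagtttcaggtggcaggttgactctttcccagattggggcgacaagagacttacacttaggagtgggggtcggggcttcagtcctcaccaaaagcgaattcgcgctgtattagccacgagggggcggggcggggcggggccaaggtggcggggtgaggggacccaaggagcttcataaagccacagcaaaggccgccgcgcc
Eomes: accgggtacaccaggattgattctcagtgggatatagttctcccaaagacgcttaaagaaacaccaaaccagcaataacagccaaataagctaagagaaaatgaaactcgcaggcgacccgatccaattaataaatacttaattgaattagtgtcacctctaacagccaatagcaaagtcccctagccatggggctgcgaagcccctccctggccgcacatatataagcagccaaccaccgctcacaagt
Bach2: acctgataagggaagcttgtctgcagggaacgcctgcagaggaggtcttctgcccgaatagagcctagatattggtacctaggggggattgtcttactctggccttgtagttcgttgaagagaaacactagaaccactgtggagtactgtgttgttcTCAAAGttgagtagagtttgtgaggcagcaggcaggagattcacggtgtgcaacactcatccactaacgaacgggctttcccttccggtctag
GC content was 70.0% for Gata3, 60.8% for Tbx21, 46.4% for Eomes and 50.4% for Bach2, beside a median of 52.4% over 32851 mouse promoters of this length. RefSeq entries were matched for 8 members, 10 promoters in all, with none for Zbtb16. TCAAAG, the reverse of CTTTGA, lay 93 bases before the RefSeq start of Bach2 used here, and this motif was in 1 of the 10 member promoters and in 13.8% of all promoters. The GATA letters AGATAA were in 1 of 10 (Foxp3) and 9.99% of all, the E-box CAGCTG in 3 of 10 (Foxp3, Id2 and Tcf7) and 13.0% of all, and the T-box letters TCACAC in 0 of 10 and 12.3% of all. These matches describe letters only.

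Gata3 (ENSMUSG00000015619, chromosome 2, 9857078 to 9890034, minus strand, GRCm38) was highest in ILC2-like cells, at 731 CPM over both libraries. T-like cells came next at 97.3 CPM (82.3 to 114) and NK-like cells at 86.2 CPM (65.1 to 112), so the latter pair did not differ beyond counting error. In ILC2-like cells Gata3 had 211 UMIs in Sham and 273 in TBI, or 728 and 733 CPM, a log2 ratio of TBI over Sham of 0.01 (−0.25 to 0.28). The levels of the libraries lay within counting error of each other. Among ILC2-like cells 70 of 124 in Sham (56.5%, 47.3 to 65.3) and 98 of 140 in TBI (70.0%, 61.7 to 77.5) had a Gata3 UMI, but these cells also differed in depth, with medians of 1704 and 2861 UMIs. With every cell thinned to 1000 UMIs, and shallower cells left out, the shares were 46.7% of 75 and 49.5% of 105 cells. Endothelial-like, fibroblast-like and macrophage-like cells, set beside the lymphocytes, had Gata3 in 0.79%, 0.38% and 0.54% of cells at median depths of 1828, 3050 and 4994 UMIs. The endothelial-like cells had 10 UMIs in 5 cells, 3 of which had at least 2 UMIs, so they are not taken as cells that lack Gata3. When each ILC2-like cell was weighted equally, in place of each UMI, the log2 ratio was 0.43. Of the 264 ILC2-like cells, 107 had a UMI of Cd3d, Cd3e, Cd3g, Trac or Trbc2. The Gata3 ratio was −0.16 (−0.55 to 0.24) in these and 0.15 (−0.21 to 0.52) in the others. A second clustering of T-like, ILC2-like and NK-like cells placed 34 of the class in a cluster led by Gm36723. Another 13 were in a T-like and 8 in a gamma-delta or type 17 T-like cluster. Its ILC2-like cluster had median depths of 3197 and 3031 UMIs and a ratio of −0.11 (−0.37 to 0.16).

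In T-like cells Gata3 was lower after TBI, at 74 UMIs (121 CPM) in Sham and 75 UMIs (81.4 CPM) in TBI, with a log2 ratio of −0.58 (−1.06 to −0.09). This interval leaves out 0, but thinning leaves 10 and 22 UMIs and a ratio of 0.35 (−0.75 to 1.63), so the direction was not seen at equal depth. T-like cells were also divided by the coreceptors that mark helper and cytotoxic T cells. In cells with Cd4 and neither Cd8a nor Cd8b1, Gata3 had 35 UMIs in 16 of 38 Sham cells and 9 UMIs in 8 of 33 TBI cells, or 206 and 56.1 CPM (log2 ratio −1.82, −3.12 to −0.79). The cells with Cd8a or Cd8b1 and no Cd4 had 11 UMIs in each library (−0.71, −2.06 to 0.64), and the remaining T-like cells had 28 and 55 UMIs, or 103 and 113 CPM. The intervals of the Cd4 and Cd8 cells overlap and their difference was not tested, and 2 Sham Cd4 cells held 11 of the 35 UMIs. Those 2 were the Sham T-like cells with Il13, the type 2 cytokine, of which they had 38 UMIs, 37 of them in 1 cell, while TBI T-like cells had 3 UMIs in 2 cells. Il13 was chosen after its values were seen.

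Rora (ENSMUSG00000032238, chromosome 9, 68653786 to 69388246, plus strand), the nuclear receptor needed for ILC2 development, was highest among lymphocytes in ILC2-like cells, at 211 CPM (178 to 249), then in T-like cells at 98.6 CPM (83.5 to 116) and in NK-like cells at 30.8 CPM (18.8 to 47.6). The intervals of those 3 levels did not overlap. The ILC2-like cells had 66 and 74 UMIs in Sham and TBI (228 and 199 CPM, log2 ratio −0.20, −0.69 to 0.31), and 34.7% and 32.1% of them had a UMI. T-like cells had 60 and 91 UMIs (98.3 and 98.7 CPM, 0.00, −0.48 to 0.50). Neither class showed a difference beyond counting error. Fibroblast-like cells had Rora in 19.7% of cells and endothelial-like cells in 7.43%, so the share in NK-like cells, 8.24% over both libraries, is no more than that seen outside lymphocytes. Of ILC2-like cells with Gata3, 41.7% (70 of 168) also had Rora, against 18.8% (18 of 96) of those without, and after thinning these shares were 24.1% and 15.1%, with intervals that overlap.

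Tbx21 (ENSMUSG00000001444, chromosome 11, 97098071 to 97115331, minus strand), the type 1 factor T-bet, was highest in NK-like cells, at 254 CPM (217 to 296), and second in T-like cells, at 113 CPM (96.7 to 131). ILC2-like cells had 5 UMIs in 264 cells, and no UMI was found in 673 B-like or 221 B precursor-like cells. It was the member with the clearest difference in its leading class: NK-like cells had 108 UMIs in Sham and 57 in TBI, or 315 and 186 CPM. The log2 ratio was −0.76 (−1.25 to −0.29), and over all alternatives it lay between −0.83 and −0.56. A Tbx21 UMI was found in 61 of 93 Sham NK-like cells (65.6%, 55.0 to 75.1) and in 37 of 89 TBI cells (41.6%, 31.2 to 52.5). Median depth was 3333 and 2983 UMIs in these cells, and at 1000 UMIs per cell the shares were 28.7% and 17.9%, with a log2 ratio of −0.67 (−1.62 to 0.20). No endothelial-like or fibroblast-like cell and 0.22% of macrophage-like cells had a UMI.

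Eomes (ENSMUSG00000032446, chromosome 9, 118478212 to 118486132, plus strand), the related T-box factor of mature NK cells, was highest in the same class, at 266 CPM (228 to 309), followed by T-like cells at 36.6 CPM (27.6 to 47.5). Its UMIs in NK-like cells numbered 104 in Sham and 69 in TBI, or 304 and 225 CPM, with a log2 ratio of −0.43 (−0.89 to 0.02). The value lay on the same side as that of Tbx21, but its interval holds 0, and the share of cells was 46.2% (43 of 93) and 40.5% (36 of 89), or 23.0% and 20.2% at equal depth. The pair of T-box genes was not found together more often than apart: Eomes was in 44.9% of the 98 NK-like cells with Tbx21 and in 41.7% of the 84 without.

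The NK-like class held some cells with transcripts of the T cell receptor complex, and the Tbx21 ratio was examined in both kinds. In NK-like cells with a UMI of Cd3d, Cd3e, Cd3g, Trac or Trbc2, Tbx21 had 47 and 9 UMIs (log2 ratio −1.52, −2.80 to −0.54) and Eomes 44 and 12 (−1.03, −2.13 to −0.13). In NK-like cells without any of them, Tbx21 had 61 and 48 UMIs (−0.55, −1.13 to 0.02) and Eomes 60 and 57 (−0.28, −0.83 to 0.27). All 4 ratios were below 0, and the interval left out 0 for the cells with such transcripts. The difference between the 2 kinds of cell was not tested. Clustering the T-like, ILC2-like and NK-like cells anew placed 124 cells of the class in a tighter NK-like cluster, 70 of 93 in Sham and 54 of 89 in TBI. Another 55 cells of the class were in the cluster led by Gm36723 and 3 in a T-like cluster. The part of this uneven division in the ratios of the class was not tested. In the tighter cluster Tbx21 had 87 and 40 UMIs (−0.56, −1.15 to −0.02) and Eomes 101 and 62 (−0.15, −0.64 to 0.31). Genes linked to these factors were also mostly lower in the whole NK-like class: of 9 type 1 and cytotoxic genes 7 lay below 0 and 2 above, with a median log2 ratio of −0.33 beside −0.02 for all genes. Those above were Cxcr3, at 128.5 and 224.8 CPM (0.80, 0.24 to 1.39), whose interval leaves out 0, and Ifng (0.11, −0.70 to 0.91). Both were named after their values were seen. The most abundant of the 9 were Gzma, a granzyme, at 9197 and 6839 CPM (−0.43, −0.51 to −0.35), and Nkg7, a granule protein, at 3997 and 3170 CPM (−0.33, −0.45 to −0.21). The summed NK markers, which include those 2 genes, were 28940 CPM in Sham and 23000 CPM in TBI.

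In T-like cells Tbx21 had 73 and 100 UMIs (120 and 109 CPM, −0.14, −0.59 to 0.31) and Eomes 18 and 38 (29.5 and 41.2 CPM, 0.46, −0.36 to 1.38). Neither differed beyond counting error, and 14 of the 38 Eomes UMIs in TBI came from 1 cell. That cell had 28432 UMIs in all, the most of any TBI cell, beside a median of 3320 in TBI T-like cells. It had 21 UMIs of Cd3e, 3 of Cd4, 10 of Tcf7, 11 of Nkg7 and none of Tbx21, Cd8a or Ncr1. It was not predicted to be a doublet, but the number of such calls was set beforehand, so this does not show a single cell. Without that cell the log2 ratio was −0.14. Eomes was otherwise a gene of the Cd8 cells, with a UMI in 19.4% of 93 of them (18 cells) and in 1 of 71 Cd4 cells. The Cd8 cells had 15 UMIs in Sham and 14 in TBI (−0.81, −1.97 to 0.34).

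**Figure D2:**
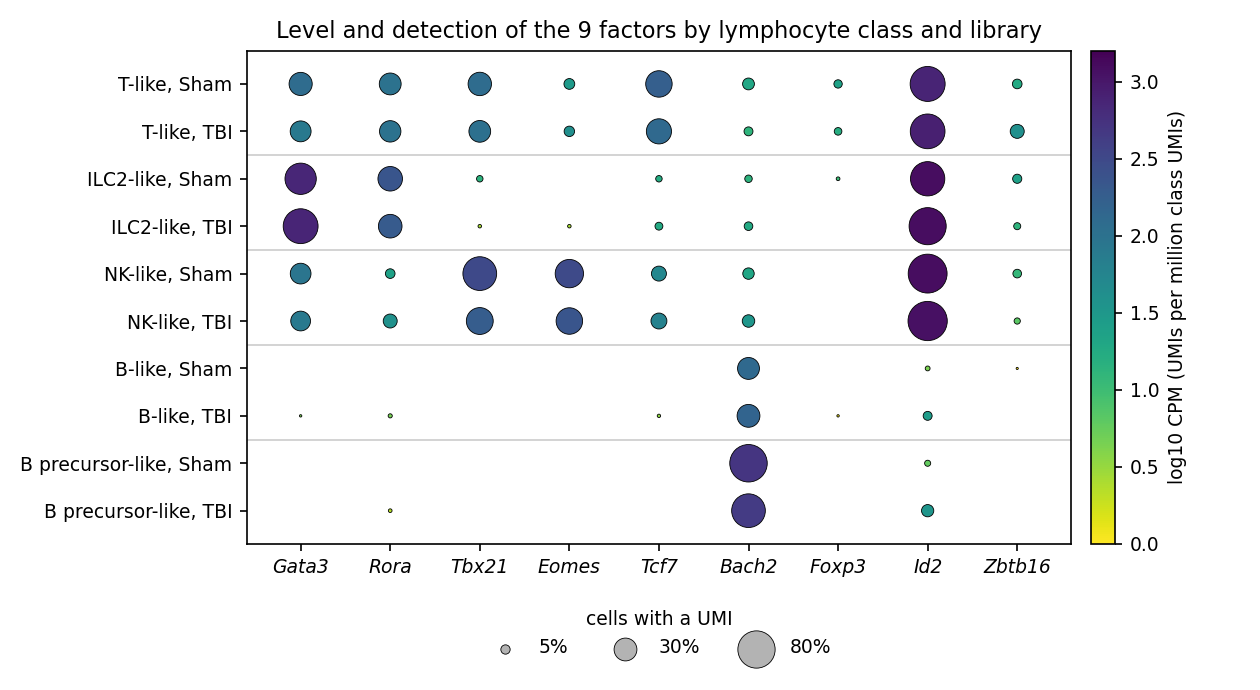
Rows are the 5 lymphocyte classes in each library and columns the 9 factors, with colour giving the level (log10 CPM) and circle area the percent of cells with a UMI. Gata3 and Rora are highest in ILC2-like cells, Tbx21 and Eomes in NK-like cells, Tcf7 in T-like cells and Bach2 in B precursor-like cells at 502 CPM in Sham and 442 CPM in TBI.

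Tcf7 (ENSMUSG00000000782, chromosome 11, 52252371 to 52283014, minus strand), the gene for TCF-1, was highest in T-like cells, at 150 CPM (131 to 171), then in NK-like cells at 57.0 CPM (40.1 to 78.5) and ILC2-like cells at 18.1 CPM (9.36 to 31.7). The intervals of these levels did not overlap. T-like cells had 108 UMIs in Sham and 122 in TBI, or 177 and 132 CPM, and the log2 ratio of −0.42 (−0.80 to −0.03) just left out 0. With predicted doublets removed it was −0.38 (−0.77 to 0.01). A Tcf7 UMI was in 60 of 149 Sham cells (40.3%) and 87 of 239 TBI cells (36.4%), or 15.7% and 11.1% when thinned, against at most 0.57% of the 3 other cell types. Cd8 cells had 190 and 116 CPM from 32 UMIs each (−0.71, −1.47 to 0.04), and Cd4 cells 199.7 and 199.6 CPM from 34 and 32 UMIs (0.00, −0.74 to 0.74). Whether the Cd4 and Cd8 cells differ was not tested. The second clustering did not give the same side throughout. In its T-like cluster of 226 cells Tcf7 had 87 and 86 UMIs (−0.58, −1.03 to −0.14) and Gata3 49 and 40 (−0.86, −1.50 to −0.23). In its cluster led by Gm36723 Tcf7 had 15 and 28 UMIs (0.40, −0.54 to 1.43) and Gata3 30 and 31 (−0.44, −1.21 to 0.34). Its gamma-delta or type 17 T-like cluster had 16 and 15 UMIs of Tcf7 (−0.66, −1.78 to 0.45) and 3 and 13 of Gata3 (1.38, −0.31 to 4.00). Over all T-like cells Il7r, the interleukin 7 receptor of naive and memory cells, was lower after TBI, at 441 and 301 CPM (−0.55, −0.80 to −0.31). Cd27 stood at 162 and 153 CPM (−0.09, −0.47 to 0.30). None of the 5 naive or quiescent genes was past 2-fold, and all 5 lay below 0.

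Bach2 (ENSMUSG00000040270, chromosome 4, 32238804 to 32586108, plus strand), a repressor that holds B cells before plasma cell differentiation and acts in early B cell development, was the one member of high level in the B lineage. It reached 468 CPM (421 to 519) in B precursor-like cells and 139 CPM (123 to 156) in B-like cells, followed by NK-like cells at 26.2 CPM (15.3 to 41.9). T-like and ILC2-like cells, at 15.7 and 16.6 CPM, did not differ from each other beyond counting error. Between the libraries the B precursor-like cells had 169 and 193 UMIs (502 and 442 CPM, −0.18, −0.49 to 0.12) and the B-like cells 148 and 129 UMIs (130 and 150 CPM, 0.20, −0.15 to 0.55). Both intervals hold 0. Although 76 of 94 Sham precursor-like cells (80.9%, 71.4 to 88.2) and 83 of 127 TBI cells (65.4%, 56.4 to 73.6) had a UMI, the thinned shares were 40.5% and 33.0%, and weighting cells equally gave a log2 ratio of −0.58. Dendritic-like cells also had Bach2, in 13.6% of 499 cells at a median depth of 7998 UMIs, while endothelial-like and macrophage-like cells each had it in 3.16%.

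Inside the B lineage Bach2 was found in a larger share of precursor cells than of mature B cells, each cell at its own depth. The second clustering gave a B precursor-like cluster in which 76.2% of 168 cells had a UMI and a cycling-like cluster, led by Top2a, Mki67 and the pre-B genes Igll1 and Vpreb1, in which 63.5% of 52 cells did, at a median of 5546 UMIs. A B-like cluster with Ighd and Fcer2a, markers of mature B cells, had it in 24.3% of 222 cells, the cluster led by Wfdc21 in 29.8% of 218, the cluster led by Sox5 in 36.2% of 152 and the cluster led by Nfkbid in 20.7% of 82.

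**Figure D3:**
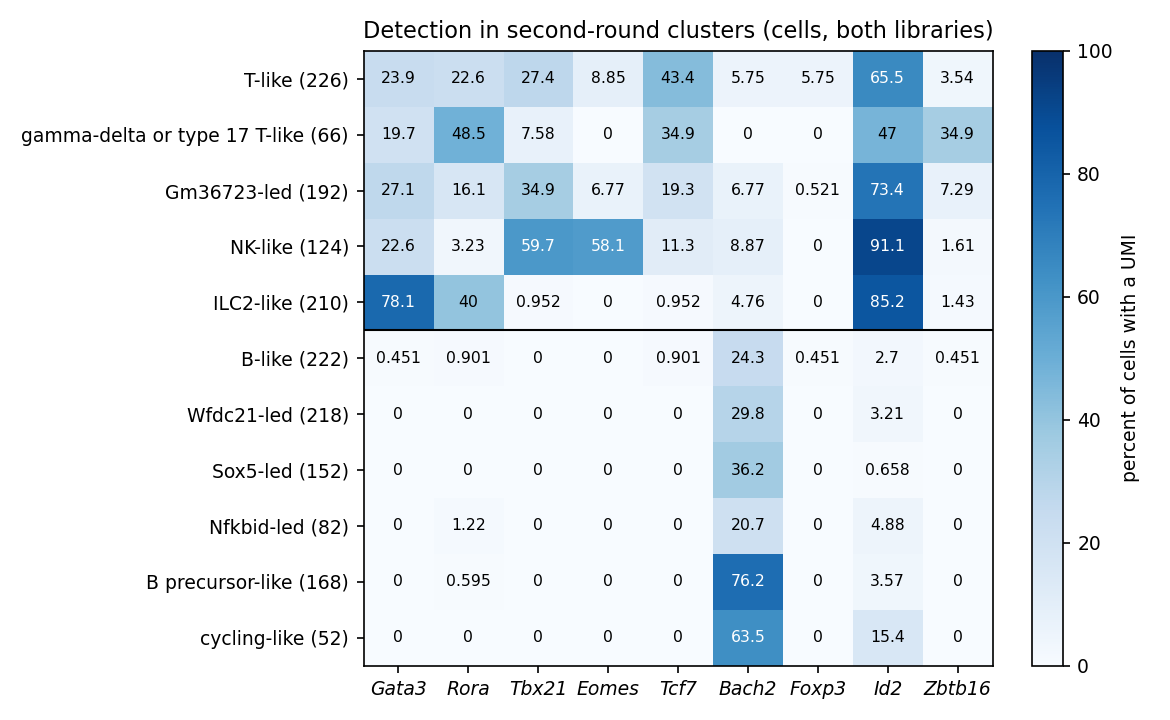
Each cell of the grid is the percent of cells with a UMI of 1 factor (columns) in 1 second-round cluster (rows, with the number of cells over both libraries); the line divides T, ILC2 and NK clusters from B clusters, and a cluster of 16 cells led by Ifit3 is not drawn. Gata3 reaches 78.1% in ILC2-like cells, Tbx21 59.7% in NK-like cells and Bach2 76.2% in B precursor-like cells, whereas Zbtb16 reaches 34.9% in the gamma-delta or type 17 T-like cluster.

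Foxp3 (ENSMUSG00000039521, chromosome X, 7573644 to 7595245, plus strand) was the scarcest member, with 41 UMIs in 20 of 5816 cells. T-like cells held 29 of them, 14 UMIs in 6 of 149 Sham cells (4.03%, 1.49 to 8.56) and 15 UMIs in 8 of 239 TBI cells (3.35%, 1.46 to 6.49). The log2 ratio was −0.50 (−1.65 to 0.67), so a difference was not detectable at this depth. At 1000 UMIs per cell the ratio was on the other side, 2.06 (−0.24 to 8.01) from 1 and 10 UMIs, and the shares were 0.75% (1 of 134) and 3.11% (7 of 225). Another 3 UMIs came from 1 Sham ILC2-like cell, and no UMI was found in the 182 NK-like cells, which allows a share of cells with a UMI of up to 1.65% by the floor of 3 counts and says nothing of expression below that. Several genes known from regulatory T cells were more often found in the 14 T-like cells with Foxp3 than in other T-like cells. All 14 had Cd3e, 6 had Cd4 and 1 had Cd8a. Ctla4 was found in 7 of them (interval 23.0 to 77.0%) against 3.74% of the 374 other T-like cells, Tnfrsf4 in 8 (57.1%, 28.9 to 82.3) against 7.49%, and Ikzf2 in 10 (71.4%, 41.9 to 91.6) against 19.5%, at similar median depths of 3224 and 3510 UMIs. In the 71 T-like cells with Cd4 and no Foxp3 these shares were 12.7%, 23.9% (14.6 to 35.5) and 25.4%, and the intervals of Tnfrsf4 in the 2 sets of cells overlap. Il2ra, the interleukin 2 receptor chain of regulatory T cells, was in 2 of the 14 (14.3%, 1.78 to 42.8) against 9.63% of the other T-like cells. Gata3 was in 6 of the 14 and Il10 in none. Over all T-like cells the most abundant genes of the regulatory list were Tnfrsf18 at 225 and 201 CPM (−0.16, −0.49 to 0.17) and Tnfrsf4, the receptor OX40, which was lower after TBI at 156 and 49.9 CPM from 95 and 46 UMIs (−1.63, −2.18 to −1.12).

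Zbtb16 (ENSMUSG00000066687, chromosome 9, 48654297 to 48836222, minus strand) had its highest lymphocyte level in T-like cells, at 31.3 CPM (23.1 to 41.5), and did not differ there from fibroblast-like cells, at 32.7 CPM. Of the 9 members it was the one past 2-fold in T-like cells, where 8.19% of the 8938 genes with at least 10 UMIs were. It had 11 UMIs in 8 Sham cells (5.37%) and 37 UMIs in 27 TBI cells (11.3%), or 18.0 and 40.1 CPM, with a log2 ratio of 1.11 (0.15 to 2.28). Over both libraries fibroblast-like cells had Zbtb16 in 10.5% of cells, endothelial-like cells in 2.53% and macrophage-like cells in 4.58%. In Sham and TBI the fibroblast-like shares were 9.09% (3.41 to 18.7) and 10.7% (8.02 to 13.9). The intervals of the T-like shares, 2.35 to 10.3% in Sham and 7.58 to 16.0% in TBI, overlap those of fibroblast-like cells of the same library. Fibroblast markers in T-like cells summed to 9.83 CPM in Sham and 254 CPM in TBI, and their part in this ratio was not tested. The value rests on few UMIs. It was below 1 when cells were assigned by markers (0.96), when cells of high hemoglobin were kept (0.93), without the cell with most UMIs (0.91) and with the second-round classes (0.25), and at 1000 UMIs per cell it was −0.22 from 4 and 6 UMIs.

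The T-like cells with Zbtb16 had gamma-delta genes more often than the others, but were not all of one kind. Of the 35 T-like cells with a UMI, 20 had Trdc, the constant region of the delta receptor chain (57.1%, 39.4 to 73.7), against 12.2% of the other 353, and 16 had Cd163l1 (45.7% against 8.22%). None had Cd8a, against 23.2%. In the second clustering the gamma-delta or type 17 T-like cluster of 66 cells, marked by Blk, Il23r, Il17re and Ccr6, had Zbtb16 in 34.9% of cells, Rora in 48.5%, Tcf7 in 34.9% and Tbx21 in 7.58%. All 7 Tbx21 UMIs of this cluster were in 5 of its 27 Sham cells (18.5%, 6.30 to 38.1), and none was found in its 39 TBI cells, whose interval reaches 9.03%. No Eomes or Foxp3 UMI was found in it. The T-like cells of this cluster had 6 Zbtb16 UMIs in 4 Sham cells and 16 in 14 TBI cells, or 75.3 and 124 CPM. With its 8 cells of the ILC2-like class included the UMIs were 12 and 16 (−0.17, −1.32 to 1.06), so the side of this ratio depends on which cells are counted. Among T-like cells the cluster held 21 Sham cells (14.1%) and 37 TBI cells (15.5%). The other T-like UMIs of Zbtb16 were 3 in Sham and 12 in TBI in the cluster led by Gm36723, which also carries Itga1 and Zfp683, and 2 and 8 in the T-like cluster. T-like cells with Rora had Zbtb16 in 14.4% of 104 cells (8.30 to 22.7), against 7.04% of the 284 without (4.35 to 10.7). These intervals overlap, and after thinning the shares were 4.88% (2 of 41) and 1.89% (6 of 318).

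Id2 (ENSMUSG00000020644, chromosome 12, 25093799 to 25097140, minus strand) separated the innate and T lineages from B cells. ILC2-like cells at 1243 CPM (1159 to 1331) and NK-like cells at 1204 CPM (1121 to 1292) did not differ beyond counting error, and T-like cells followed at 804 CPM (760 to 850). B-like cells had 14.5 CPM (9.73 to 20.9) and B precursor-like cells 22.0 CPM (12.8 to 35.2). Fibroblast-like cells had 726 CPM and dendritic-like cells 372 CPM. An Id2 UMI was found in 87.9% of 182 NK-like, 73.9% of 264 ILC2-like and 69.9% of 388 T-like cells, and in 2.82% of 673 B-like cells, beside 11.7% of endothelial-like, 63.9% of fibroblast-like and 11.8% of macrophage-like cells. The B share lies below all of these.

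Between the libraries Id2 was close to level in the classes that express it. T-like cells had 458 and 774 UMIs (751 and 840 CPM, 0.16, −0.01 to 0.33), ILC2-like cells 355 and 468 (1224 and 1257 CPM, 0.04, −0.16 to 0.24) and NK-like cells 424 and 358 (1238 and 1166 CPM, −0.09, −0.29 to 0.12). Those 3 intervals hold 0 and none reaches past 0.33 in either direction. In ILC2-like cells 67.7% and 79.3% had a UMI, and 60.0% and 64.8% when thinned.

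In the B lineage Id2 was the one member past 2-fold, 1 of 2 with at least 10 UMIs in B-like cells, where 7.84% of all genes were, and 1 of 2 in B precursor-like cells, where 10.3% were. B-like cells had 5 UMIs in 5 of 370 Sham cells and 24 UMIs in 14 of 303 TBI cells, or 4.40 and 27.9 CPM (2.56, 1.25 to 4.41). B precursor-like cells had 2 UMIs in 2 of 94 Sham cells and 15 UMIs in 11 of 127 TBI cells (2.26, 0.43 to 5.70). At 1000 UMIs per cell B-like cells kept 2 and 6 UMIs and B precursor-like cells 1 in each library. In TBI an Id2 UMI was found in 4.62% of B-like cells (2.55 to 7.63) and 8.66% of B precursor-like cells (4.40 to 15.0), beside 14.0% of endothelial-like (10.8 to 17.9) and 13.2% of macrophage-like cells (10.7 to 16.0), and the interval of the B precursor-like cells overlaps the last 2. Markers of other cells also differed between the libraries. Fibroblast markers summed to 19.4 CPM in Sham B-like cells, with Lum, Pdgfra, Col3a1 and Igfbp6 at 0, and to 229 CPM in those of TBI, with all 8 found. Id2 stood at 12.2 UMIs per 100 fibroblast marker UMIs in TBI B-like cells and at 2.57 in fibroblast-like cells of that library. For ILC2 markers the values in B-like and ILC2-like cells were 41.4 and 45.5. Beside their own classes they were 92.3 and 12.9 for dendritic, 6.45 and 0.0965 for macrophage, 133 and 11.8 for T and 12.0 and 5.07 for NK markers. Median depth in TBI was 3584 UMIs in B-like cells with Id2 and 2634 in the others. For B precursor-like cells it was 5092 and 2732 UMIs. Of the 14 Id2 cells 7 had a fibroblast marker, against 39.8% of the other B-like cells, and 1 was a predicted doublet. Macrophage markers went the same way, at 127 and 433 CPM. The part of RNA from other cells in the Id2 values was not tested. Apart from Bach2 and Id2, the members had few UMIs in B-like cells. In TBI there were 4 of Gata3 (all in 1 cell), 4 of Rora, 3 of Tcf7 and 1 of Foxp3, and in Sham 1 of Zbtb16 was the one such UMI. Tbx21 and Eomes had none in either library.

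**Figure D4:**
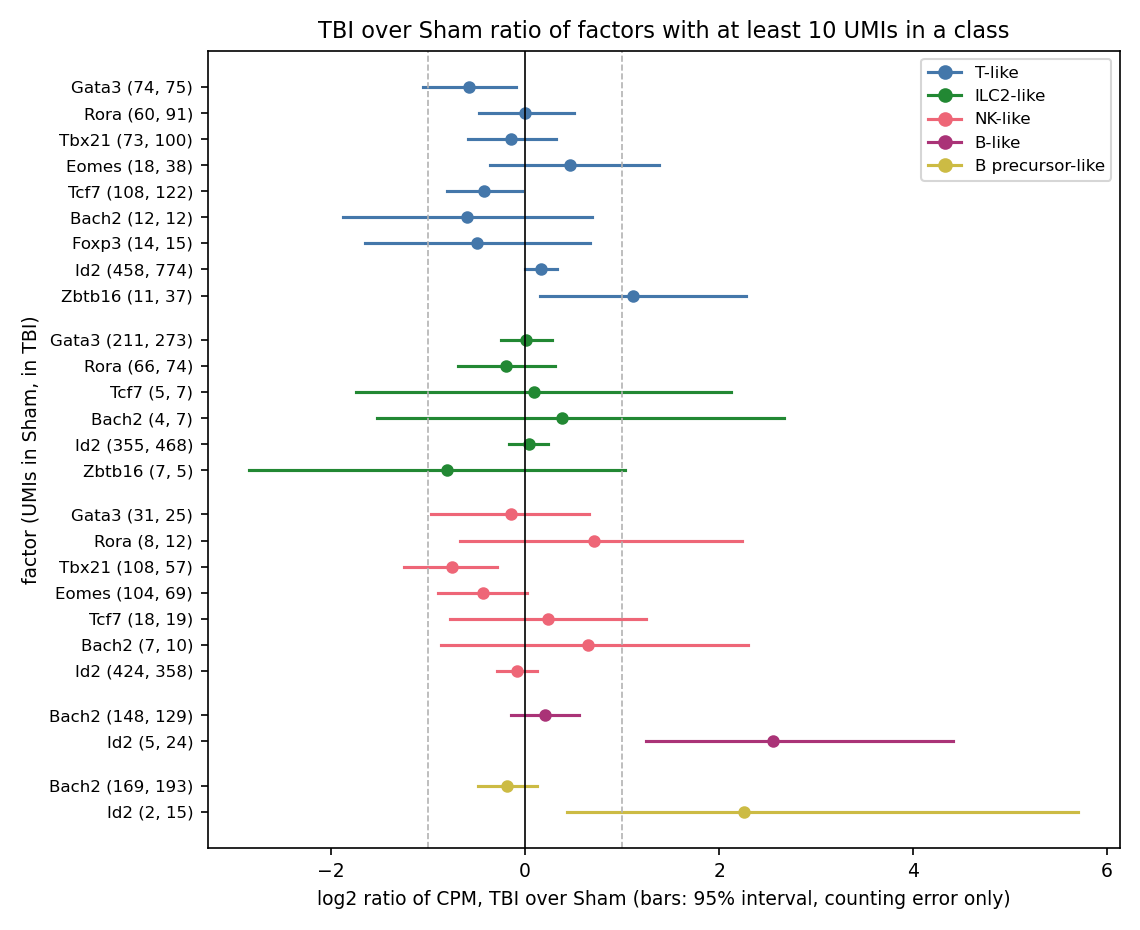
Points are log2 ratios of CPM, TBI over Sham, for each factor with at least 10 UMIs in a class (UMIs of each library beside the name), and bars are 95% intervals for counting error. Bars leave out 0 for Gata3, Tcf7 and Zbtb16 in T-like cells, Tbx21 in NK-like cells and Id2 in both B classes.

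Set against all genes, the members lay near the middle in the T, ILC2 and NK classes. None of 6 members with at least 10 UMIs was past 2-fold in ILC2-like cells, where 9.63% of 7219 genes were, and none of 7 in NK-like cells, where 10.3% of 6759 genes were. Their median log2 ratio was −0.14 in T-like, 0.02 in ILC2-like and −0.09 in NK-like cells, beside 0.03, −0.01 and −0.02 for all genes.

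**Figure D5:**
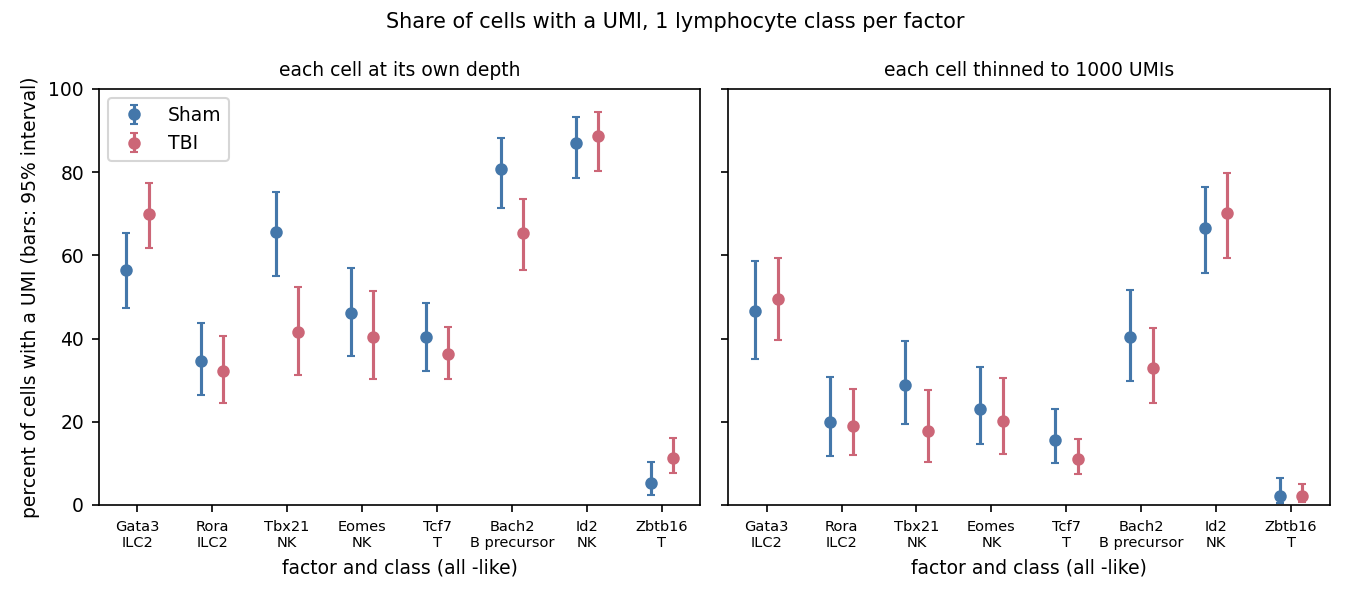
Points are the percent of cells with a UMI of 8 factors in 1 class each, in Sham and TBI, with 95% intervals, at each cell's own depth (left) and at 1000 UMIs per cell (right). The gap for Gata3 in ILC2-like cells, 56.5% and 70.0% on the left, is 46.7% and 49.5% on the right, and that for Tbx21 in NK-like cells goes from 65.6% and 41.6% to 28.7% and 17.9%.

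A list of 40 other lymphocyte transcription factors gave the wider setting. Of all genes with at least 10 UMIs, 8.19% were past 2-fold in T-like cells and 7.84% in B-like cells. The share was 9.63% in ILC2-like cells and 10.3% in both NK-like and B precursor-like cells. Whether the listed factors differ from these shares was not tested. In T-like cells 35 factors of the list had at least 10 UMIs, with a median of −0.08. Of these, Bcl6, Ebf1 and Zeb2 were past 2-fold higher and Batf and Prdm1 lower. In ILC2-like cells none of 26 was past it higher and Stat6 and Pparg were lower, and the median was −0.27, with 20 of the 26 below 0. In NK-like cells Lef1 and Zbtb7b of 26 were higher. In B-like cells Maf was higher and Nfatc1 lower of 30, and in B precursor-like cells Bcl11a and Nfatc1 were higher and Zeb1 lower of 24. Those past 2-fold were named after their values were seen, and Bcl6 and Ebf1 in T-like cells rest on 1 UMI each in Sham. Among those with at least 50 UMIs, the lowest and highest ratios in each class were as follows. T-like cells had Batf, an AP-1 factor of effector T cells, at 113 and 55.3 CPM (−1.03, −1.58 to −0.49) and Ikzf1 at −0.61 (−1.06 to −0.16) below, and Tox (0.30, −0.28 to 0.92) above. ILC2-like cells had Stat6, the transducer of interleukins 4 and 13, at 121 and 53.7 CPM (−1.15, −2.04 to −0.34) and Ikzf2 at −0.81 (−1.53 to −0.13), with Runx1 at 0.33 and Runx3 at −0.08 as the highest.

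In NK-like cells Klf2, which controls lymphocyte egress, was lower after TBI with 300 and 154 UMIs (876 and 502 CPM, −0.80, −1.09 to −0.52), on the same side as Tbx21. Zeb2, which acts with T-bet in NK maturation, stood at 184 and 124 CPM (−0.56, −1.19 to 0.03), and the highest ratios were those of Satb1 (0.95, 0.21 to 1.75) and Runx1 (0.84, 0.11 to 1.62). B-like cells had Nfatc1, a calcium-dependent factor, at 86.3 and 40.7 CPM (−1.07, −1.69 to −0.51) and Tcf4 at −0.29 (−0.70 to 0.12), with Id3 at 240 and 369 CPM (0.62, 0.38 to 0.86) and Pou2af1 at 0.12 (−0.12 to 0.35). Id3 is the relative of Id2 that B cells use, and its interval left out 0. B precursor-like cells had Foxo1 (−0.78, −1.28 to −0.29) and Ikzf1 (−0.67, −1.09 to −0.26) below and Bcl11a (1.09, 0.43 to 1.83) and Id3 (0.44, −0.14 to 1.05) above.

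Genes that the members are known to act on followed no single direction. The type 2 list, set beside Gata3 and Rora, had 0 of 6 genes past 2-fold in ILC2-like cells, where Il7r stood at 1080 and 1074 CPM (−0.01, −0.22 to 0.21) and Il1rl1, the interleukin 33 receptor, at 517 and 478 CPM (−0.11, −0.44 to 0.21). In T-like cells 4 of 6 lay below 0, with Icos at 131 and 99.8 CPM (−0.39, −0.84 to 0.06). The type 1 and cytotoxic list had 7 of 9 genes above 0 in T-like cells, where 7 of 9 were below 0 in NK-like cells. There Nkg7 stood at 1119 and 1295 CPM (0.21, 0.07 to 0.35) and Il2rb, a receptor chain for interleukins 2 and 15, at 467 and 534 CPM (0.19, −0.02 to 0.41). Past 2-fold in T-like cells, as were 8.19% of all genes with at least 10 UMIs, were Ifng, the type 1 cytokine, and Gzmb. Ifng had 18 UMIs in 9 Sham cells and 57 in 29 TBI cells (1.04, 0.28 to 1.92), 17 of the 57 in 1 cell. Gzmb had 39 and 19 UMIs (−1.61, −2.51 to −0.81), 23 of the 39 in 1 cell. These were chosen after their values were seen, and whether the T-like and NK-like ratios differ was not tested. The innate-like list, set beside Zbtb16, had 3 of 4 genes above 0 in T-like cells and none past 2-fold, with Il18r1 at 131 and 104 CPM (−0.33, −0.78 to 0.11) and Cd160 with 54 and 93 UMIs (0.18, −0.31 to 0.70).

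The genes whose pattern was most like that of each member were found by Pearson correlation of log2(CPM + 10) over 28 points, 14 cell classes in 2 libraries, among 13071 genes. These points share libraries and depth, so r is a description. Tbx21 was nearest to Cd160 (0.989), Klrc1 and Sh2d1a (both 0.985), and Eomes to Klrb1c (0.998), Klra7 (0.997) and Klre1 (0.990), which are NK markers used in naming. Tcf7 was nearest to Cd28 (0.964), Cd247 (0.953) and Gm29243 (0.952), Gata3 to Tcrg-C4 (0.971), Il2 (0.961) and Podnl1 (0.959), and Foxp3 to Cd5 (0.969), Cd8b1 (0.952) and Izumo1r (0.946). Of these, Cd28, Cd247, Cd5 and Cd8b1 are also markers used in naming. The pattern is over classes, not single cells: the 93 T-like cells with Cd8a or Cd8b1 and no Cd4 had 0 Foxp3 UMIs. Bach2 was nearest to Dnajc7 (0.890), Myb and Gpat3 (both 0.878). The broadly used members had looser neighbours, with Leprotl1 (0.812), Ikzf2 (0.799) and Traf1 (0.762) for Id2, Phlda1 (0.818), Rabac1 (0.815) and Prrc2b (0.813) for Rora, and Ppm1h (0.820), Ero1l (0.752) and Qsox1 (0.711) for Zbtb16. With a pseudocount of 1 CPM, fewer than 2 of the 3 neighbours were kept for 5 of the 9 members. None of the 3 was kept for Gata3 or Bach2.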

How the data were processed

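Dorsal meninges of 5 Sham and 5 TBI mice were pooled into 1 droplet-based 3′ library per group. The authors deposited UMI counts per gene and barcode. They made them with Cell Ranger on mm10 (version 2.1.1 in the submitters' processing notes, which also name Seurat 3.9.9 and DESeq2 1.30.0, and 3.1.0 in the matrix headers). Counts were not normalized, and barcodes outside the study's filters were still present.

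From these counts, cells with 150 to 5000 genes, at most 20% mitochondrial and at most 5% hemoglobin UMIs were kept, which left out 604 Sham (22.4%) and 431 TBI (9.91%) barcodes for hemoglobin. Both libraries were clustered together (2000 variable genes, 20 components, 20 neighbours, Leiden resolution 0.8, leidenalg 0.10.2, seed 1) without the 9 members and 40 companion factors, and classes were named from at least 3 markers. Lymphocyte classes were clustered again in the same way. Names were rebuilt and may differ from the study's. Predicted doublets (1.62% of Sham and 3.02% of TBI cells) were left in.

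UMIs were summed per class and library. Log2 ratios had 0.5 added to each sum and exact binomial intervals (scipy 1.17.1), CPM had exact Poisson intervals, and shares Clopper-Pearson intervals, all at 95%. A floor of 3 counts was 2.64 to 10.4 CPM in Sham and 3.26 to 9.77 CPM in TBI classes. The log2 ratio and its interval were tested on counts simulated from the T-like totals, drawn as independent UMIs, which is what the interval assumes. The other steps were not tested in this way. The members and gene lists were chosen with earlier results of these data known. Companion factors were named by their 2 largest and 2 smallest ratios per class among genes with at least 50 UMIs, and genes of the other lists by the 2 most abundant. One gene that this rule names is not reported here. Positions are from GENCODE vM21 on GRCm38. Gata3, Tcf7, Bach2 and Foxp3 overlap another annotated gene on the same strand, and reads of such pairs may be divided uncertainly.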

Additional observations from a re-analysis of the deposited data

How the results depend on the processing

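No paired analysis was possible because each group has 1 library. Of 26 log2 ratios, none moved beyond its counting interval with other clusterings, marker assignment, doublets, scaling, hemoglobin or gene limits, shared barcodes or the top cell. The second-round classes, chosen after seeing the data like the removal of shared barcodes and of the top cell, moved Id2 in NK-like cells to 0.26. Weighting cells equally gave 0.43 for Gata3 in ILC2-like and −0.58 for Bach2 in B precursor-like cells. The same weighting changed the lymphocyte class of highest level for 2 of the 9 members and moved 10 of 55 CPM values beyond their intervals. Marker assignment changed none of those classes but moved 12 of 55 CPM values. Thinning lowered 13 of 14 shares of cells with 1 member that also held another. At 1000 UMIs per cell 5 ratios moved and 2 reversed, among them Gata3 (0.35), Foxp3 (2.06) and Zbtb16 (−0.22) in T-like and Id2 (−0.45) in B precursor-like cells; 42 of 55 shares were then lower. The cause was not tested beyond the smaller counts.

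Counts of genes past 2-fold follow the UMI minimum. At 50 UMIs members past it numbered 0 in T-like, B-like and B precursor-like cells, companion factors 1 in T-like, ILC2-like, B-like and B precursor-like cells and 0 in NK-like cells, and all genes 51, 26, 25, 109 and 66 in T-like, ILC2-like, NK-like, B-like and B precursor-like cells. At 1 UMI members numbered 3 in ILC2-like, 6 in B-like and 2 in B precursor-like cells, companion factors 8, 13, 8, 6 and 8, and all genes 2690, 3843, 3790, 3816 and 3984 in the same order, against 732, 695, 695, 711 and 772 at the 10 UMIs used. With 1 library per group, depth limits Foxp3 and Zbtb16 in T-like cells and Id2 in B-like cells, whose ratios rest on 29, 48 and 29 UMIs.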
